A study of Mus musculus with 16 samples.

Results

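Respiratory complex I is described here through the 46 genes of the count table whose symbol begins with Nduf, the gene family that encodes its nuclear subunits and several of its assembly factors. They were taken by symbol alone from 35502 genes, leaving out symbols that end in -ps. By known role, 36 of the 46 encode subunits of complex I and 8 encode assembly factors. The other two, Ndufa4 and its paralogue Ndufa4l2, carry the family name although Ndufa4 is a subunit of complex IV. The row left out for its ending, Ndufb1-ps, averaged 31.3 ± 5.61 CPM in mature LERKO, 34.9 ± 3.86 in mature control, 44.5 ± 16.9 in immature LERKO and 43.9 ± 3.43 in immature control livers (SD, n = 4 each).

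Liver RNA of 16 mice was sequenced as stranded mRNA libraries, 1 library per mouse and 4 mice per group. LERKO mice carry Cre and lack oestrogen receptor alpha (Esr1) in the liver, and control mice carry the floxed gene without Cre. The groups are mature LERKO, mature control, immature LERKO and immature control. The series title names knockout before and after sexual maturity; the sources used here do not give the age or sex of the mice, the promoter that drives Cre, or whether stage means that at knockout or that at collection of the liver. The question for these genes is whether loss of the receptor, at either stage, goes with a change in the transcripts of complex I.

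Complex I, NADH:ubiquinone oxidoreductase, is the entry point of most electrons into the mitochondrial respiratory chain. Its matrix arm oxidises NADH at a flavin, passes the electrons along iron-sulphur clusters and hands them to ubiquinone where the arm meets the membrane, and its membrane arm pumps protons. The core subunits do this chemistry, the accessory subunits surround and stabilise them, and assembly factors help to build the enzyme without staying in it. Hepatocytes are rich in mitochondria and depend on this enzyme to reoxidise the NADH made by fatty acid oxidation.

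Esr1 itself was measured at 15.8, 19.2, 16.4 and 13.9 CPM (counts brought to a shared total per library with TMM factors) in mature LERKO livers, against 75.0, 66.7, 110.1 and 76.9 CPM in mature control livers. In immature LERKO livers it was 10.7, 12.6, 15.9 and 12.7 CPM, against 65.8, 84.5, 89.0 and 55.3 CPM in immature control livers. LERKO and control values did not overlap at either stage. Esr1 checks the genotype label of each library and not its stage. Total counts ran from 18123974 to 23213905 per library. The summed level of 8 hepatocyte markers was between 86570 and 152400 CPM in all libraries. Summed skeletal muscle markers reached 819, 347 and 57.9 CPM in mature control libraries 1, 2 and 4 and 159 CPM in immature LERKO library 4, and were at most 2.18 CPM elsewhere. Acute phase genes summed to 119200 CPM in mature LERKO library 4 and to at most 20180 CPM in any other library.

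All 46 genes passed the filter on low counts, together with 13379 genes in all. Together they made up 0.272% to 0.467% of a library's counts. The 7 mitochondrially encoded core subunits (mt-Nd1 to mt-Nd6 and mt-Nd4l) are in the table but are listed at 0 in every library, as are all 13 mitochondrially encoded protein genes, so complex I was measured only through its nuclear genes. In a whole-tissue sample, fewer hepatocytes and less RNA per hepatocyte cannot be told apart.

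Levels were compared per length, as CPM divided by the annotated length in kilobases of the shortest principal transcript, averaged over the 16 libraries. On these means every complex I subunit lay above every assembly factor, with Ndufb4 (23.4) and Ndufaf2 (18.2) the closest. The 36 subunits ran from 23.4 to 349.8 CPM per kilobase, and the 8 assembly factors from 4.18 to 18.2. Ndufa4 had the highest value of the family, at 511.2 CPM per kilobase, and Ndufa4l2, known in other tissues as a gene induced by low oxygen, had the lowest, at 1.1. Among the core subunits of the NADH end, Ndufv1, which binds NADH and the flavin, had 81.0 CPM per kilobase, Ndufv2 had 60.5, and Ndufs1, the large iron-sulphur protein, had 39.3. Of the core subunits of the ubiquinone end, Ndufs8, an iron-sulphur protein, had 90.7 CPM per kilobase, Ndufs3 had 73.9, and Ndufs7, which lines the ubiquinone site, had 71.3.

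The accessory subunits spread more widely than the core. In the matrix arm they ran from 263.0 CPM per kilobase for Ndufa6, which holds an acyl carrier protein in place, down to 37.8 for Ndufs4, whose loss in mice causes a Leigh-like disease. In the membrane arm they ran from 349.8 for Ndufb9 down to 23.4 for Ndufb4. The value of Ndufb9 is uncertain, because the predicted gene Gm49356 overlaps it on the same strand and carries a count of 32.8% to 34.3% of it. The same holds for Ndufb8 (Gm20538, 16.4% to 18.5%) and Ndufb2 (Gm42420, 40.5% to 48.7%). For 17 of the 46 genes, exons overlap exons on the other strand, and with the strand setting of the counting unknown, reads of such pairs cannot be told apart. Ndufs1 (with Ino80dos), Ndufs3 (with Kbtbd4) and Ndufa4l2 (with Shmt2) are among them.

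The assembly factors followed in the order Ndufaf2 (18.2 CPM per kilobase), Ndufaf6 (14.4), Ndufaf8 (12.8), Ndufaf1 (11.8), Ndufaf4 (7.46), Ndufaf7 (6.55), Ndufaf3 (5.45) and Ndufaf5 (4.18). Ndufaf3 and Ndufaf4 act together on the ubiquinone end, Ndufaf1 on the membrane arm, and Ndufaf2 late in assembly. In humans, NDUFAF5 modifies an arginine of NDUFS7, NDUFAF7 is an arginine methyltransferase, and NDUFAF8 stabilises NDUFAF5. Every one of these genes was counted in every library. The lowest count of any library was 62 for Ndufaf5 and 10 for Ndufa4l2, whose highest was 29, so the values of Ndufa4l2 rest on few reads.

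**Figure D1:**
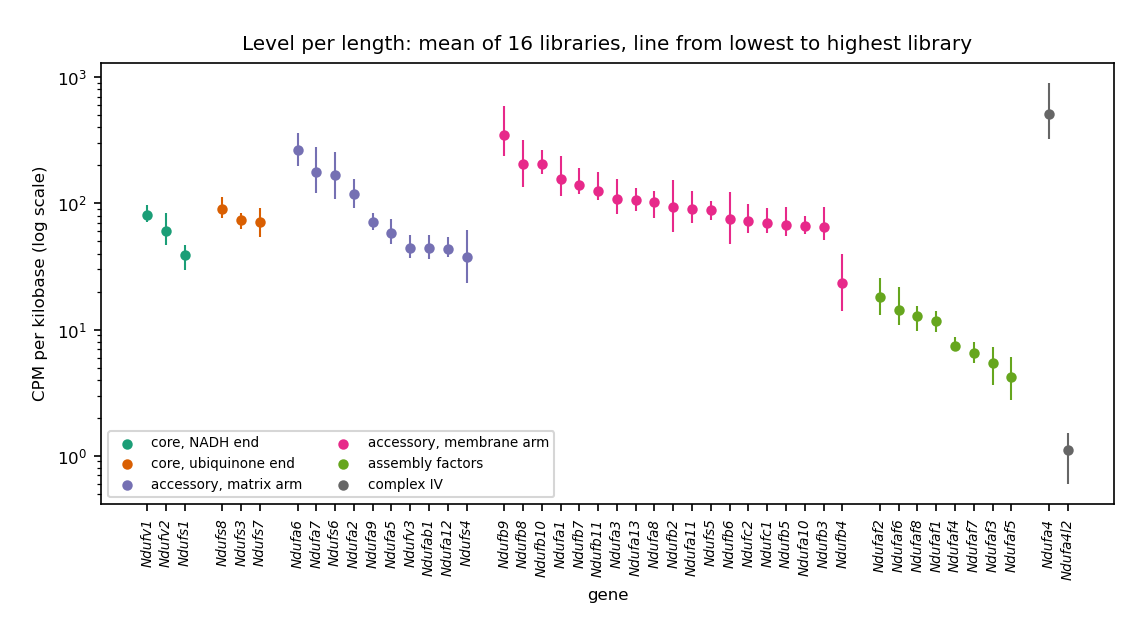
Level of 45 Nduf genes per length, in CPM per kilobase of annotated transcript on a log axis, by role. Points are means of 16 libraries and lines run from the lowest to the highest library. The means of the 8 assembly factors (4.18 to 18.2) lie below the mean of every complex I subunit drawn (23.4 to 349.8).

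The 46 genes lie on 17 chromosomes, with at most 6 on any one of them, so the family as a whole shares no locus. Ndufs8 (3908863 to 3912774) and Ndufv1 (4007384 to 4012806) lie near each other on chromosome 19. A promoter stretch, from 250 bases before to 50 bases after the gene start, was found for 40 of them in RefSeq (build GRCm38.p6). Both strands were searched for 5 short strings known as binding sequences of factors linked to respiratory genes or to oestrogen. The string GCGCNTGCG, bound by NRF1, was in 11 of the 40 promoters (27.5%), against 7.12% of 27025 genes with such a stretch. The string AAGATGGCG, bound by YY1, was in 6 (15%, against 1.64% of all), and CCGGAAG, bound by ETS factors such as GABPA, was in 6 (15%, against 9.93% of all). Neither TCAAGGTCA, bound by oestrogen-related receptors, nor the oestrogen response element, searched as GGTCA followed after 3 bases by its inverse, was in any of the 40; they are in 0.466% and 0.074% of all, and both hold the letters GGTCA. A match is a description of the letters only, and no match says only that the letters are not in this window.

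Promoters of 3 genes are shown, chosen for a small p, for the spread between libraries or for several matches. No link between a match and a level was tested. Ndufs3 (chr2:90904672-90904971, minus strand) had the smallest p of the family in the mature knockout comparison and holds CCGGAAG on either strand. Ndufs6 (chr13:73328433-73328732, minus strand), a zinc-binding subunit of the matrix arm, holds both the NRF1 and the YY1 string. Ndufb4 (chr16:37654319-37654618, minus strand), among the most variable genes between libraries, holds the NRF1 string at 3 places. All are written 5′ to 3′ in gene direction, with the matches in capitals.
Ndufs3: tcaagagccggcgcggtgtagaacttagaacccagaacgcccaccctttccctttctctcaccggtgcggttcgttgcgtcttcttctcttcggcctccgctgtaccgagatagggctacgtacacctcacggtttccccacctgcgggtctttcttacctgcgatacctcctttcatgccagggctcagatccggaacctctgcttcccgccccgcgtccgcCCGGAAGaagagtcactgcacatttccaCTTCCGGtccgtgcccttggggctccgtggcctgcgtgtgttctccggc
Ndufs6: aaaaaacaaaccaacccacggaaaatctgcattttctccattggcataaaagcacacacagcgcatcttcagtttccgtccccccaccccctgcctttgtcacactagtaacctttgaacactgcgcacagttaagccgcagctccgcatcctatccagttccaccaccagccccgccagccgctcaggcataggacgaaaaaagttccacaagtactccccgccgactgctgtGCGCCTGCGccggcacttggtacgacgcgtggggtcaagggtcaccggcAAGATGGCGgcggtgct
Ndufb4: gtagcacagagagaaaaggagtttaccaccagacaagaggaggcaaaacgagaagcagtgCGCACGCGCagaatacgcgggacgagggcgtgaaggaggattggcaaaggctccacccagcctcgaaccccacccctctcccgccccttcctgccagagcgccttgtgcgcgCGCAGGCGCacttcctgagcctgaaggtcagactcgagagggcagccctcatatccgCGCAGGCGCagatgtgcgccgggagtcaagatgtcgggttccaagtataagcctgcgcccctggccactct

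In mature livers, none of the 46 genes passed the test between LERKO and control, and most fold changes were small and negative. The edgeR quasi-likelihood test at an adjusted p of 0.05 called 0 of 46, beside 0.00747% of all tested genes (Esr1 only). At an unadjusted p below 0.05, edgeR, DESeq2 and limma-voom each had 0 of 46, beside 7.3% of all genes in edgeR. The log2 fold change was below 0 for 42 of the 46, beside 51.8% of all genes. This count fell to 28 without mature LERKO library 2, a fit for which the share of all genes was not computed. With all libraries the median was -0.084, beside -0.0097 for all genes. The 95% interval stayed within 1.5-fold of no change for 41 of the 46 genes, beside 58.5% of all tested genes. It stayed within 2-fold for all 46, beside 81.2% of all. The median SE was 0.127 for the 46 and 0.17 for all genes.

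Among the core subunits of the NADH end, Ndufv1 averaged 127.9 ± 7.85 CPM in mature LERKO and 133.1 ± 6.84 in mature control livers (SD, n = 4 each). Ndufs1 averaged 96.2 ± 13.3 CPM in mature LERKO and 102.3 ± 3.79 in mature control livers, and Ndufv2 averaged 94.3 ± 10.4 CPM in mature LERKO and 99.3 ± 7.61 in mature control livers. All 3 log2 fold changes lay between -0.088 and -0.058. At the ubiquinone end, Ndufs7 averaged 49.2 ± 5.66 CPM in mature LERKO and 52.5 ± 5.10 in mature control livers, and Ndufs8 averaged 69.8 ± 7.38 CPM in mature LERKO and 71.3 ± 3.90 in mature control livers. Their log2 fold changes were -0.094 (95% interval -0.33 to 0.14) and -0.029 (-0.25 to 0.19).

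Ndufs3, a core subunit beside the ubiquinone site, had 73.1, 65.7, 70.4 and 70.4 CPM in mature LERKO livers, against 75.2, 77.4, 80.5 and 76.5 CPM in mature control livers. All 4 LERKO values lay below all 4 control values. The log2 fold change of Ndufs3, -0.15 (SE 0.080), did not pass the edgeR test (adjusted p = 0.711). Ndufa4l2 was the other gene without overlap, at 1.12, 1.01, 0.761 and 0.889 CPM in mature LERKO and 1.37, 1.16, 1.21 and 1.22 CPM in mature control livers. Groups without overlap were 2 of 46, both lower in LERKO, beside 2.29% of all tested genes lower without overlap.

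The accessory subunits and the assembly factors had negative medians too. All 10 accessory subunits of the matrix arm had a negative log2 fold change (median -0.083), and so did 18 of the 19 of the membrane arm (median -0.074). Among the 8 assembly factors 5 were negative, with a median of -0.075. Ndufaf6, which in humans is needed for the early assembly of the membrane arm, had the family's second smallest p, between 11.8 and 15.1 CPM in mature LERKO livers, against 18.9, 18.4, 15.7 and 13.1 CPM in mature control livers. Its log2 fold change was -0.28 (SE 0.16, adjusted p = 0.723 in edgeR), and its groups overlapped. Ndufaf7 followed at -0.17 (SE 0.12, adjusted p = 0.750 in edgeR).

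The median of mature livers rested on single libraries to a large part. It moved to -0.030 without mature LERKO library 2, to -0.043 without mature control library 2 and to -0.034 without the 3 libraries with most muscle transcripts. Scaled by library size alone it was -0.15, beside -0.077 for all genes. Summed markers of stellate and endothelial cells also had a lower mean in mature LERKO livers, the first without and the second with overlap. With overlap too, the mean was lower for Kupffer cell and macrophage markers (344.6 CPM against 374.4 in mature control) and hepatocyte markers (112400 against 122900). For cholangiocyte markers it was higher (37.4 against 35.6), with overlap. The 10 stellate cell markers summed to between 142.6 and 535.2 CPM in mature LERKO and between 564.1 and 719.2 CPM in mature control livers. The 9 endothelial markers summed to between 105.1 and 280.6 CPM in mature LERKO and between 258.2 and 365.2 CPM in mature control livers, and 0 genes of either list were at 0 in any library. Mature LERKO library 4 had the lowest sum of the 16 for both lists and for the hepatocyte markers (86570 CPM), and without it the median of the 46 genes was -0.064. The part of these cell types in the result was not tested.

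In immature livers the knockout comparison gave no call either, and the fold changes leaned the other way. edgeR called 0 of 46 genes, beside 0.00747% of all tested genes, and at an unadjusted p below 0.05 edgeR, DESeq2 and limma-voom each had 0 of 46, beside 2.76% of all in edgeR. The log2 fold change was above 0 for 35 of the 46, beside 53.2% of all genes. Its median was 0.030, beside 0.013 for all genes, and by library size alone 0.089, beside 0.070 for all genes. No gene of the family had groups without overlap, beside 1.63% of all. The 95% interval stayed within 1.5-fold for 44 genes, beside 61.6% of all tested genes, and within 2-fold for all 46, beside 83.4%.

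The 7 core subunits lay between -0.10 and 0.091 on the log2 scale, with Ndufs7 lowest and Ndufs8 highest. Ndufs3 averaged 80.7 ± 3.06 CPM in immature LERKO and 81.3 ± 8.05 in immature control livers (SD, n = 4 each). The smallest p belonged to Ndufa8, a membrane-arm subunit held together by cysteine pairs. It had 83.1, 90.8, 107.7 and 102.7 CPM in immature LERKO livers, against 75.8, 80.4, 96.8 and 85.3 CPM in immature control livers, and its groups overlapped. Ndufa8 differed by 0.18 on the log2 scale (SE 0.13, adjusted p = 1 in edgeR). Ndufaf4 followed at 0.11 (SE 0.086).

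The sign of the immature median depended on single libraries. Without immature LERKO library 3 the median was -0.092, with 37 of the 46 fold changes below 0, against 11 with all libraries. Without immature control library 1 the median was -0.0024. Without immature control library 2 it was 0.0055. Leaving out any other of the 8 immature libraries gave between 0.068 and 0.076.

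**Figure D2:**
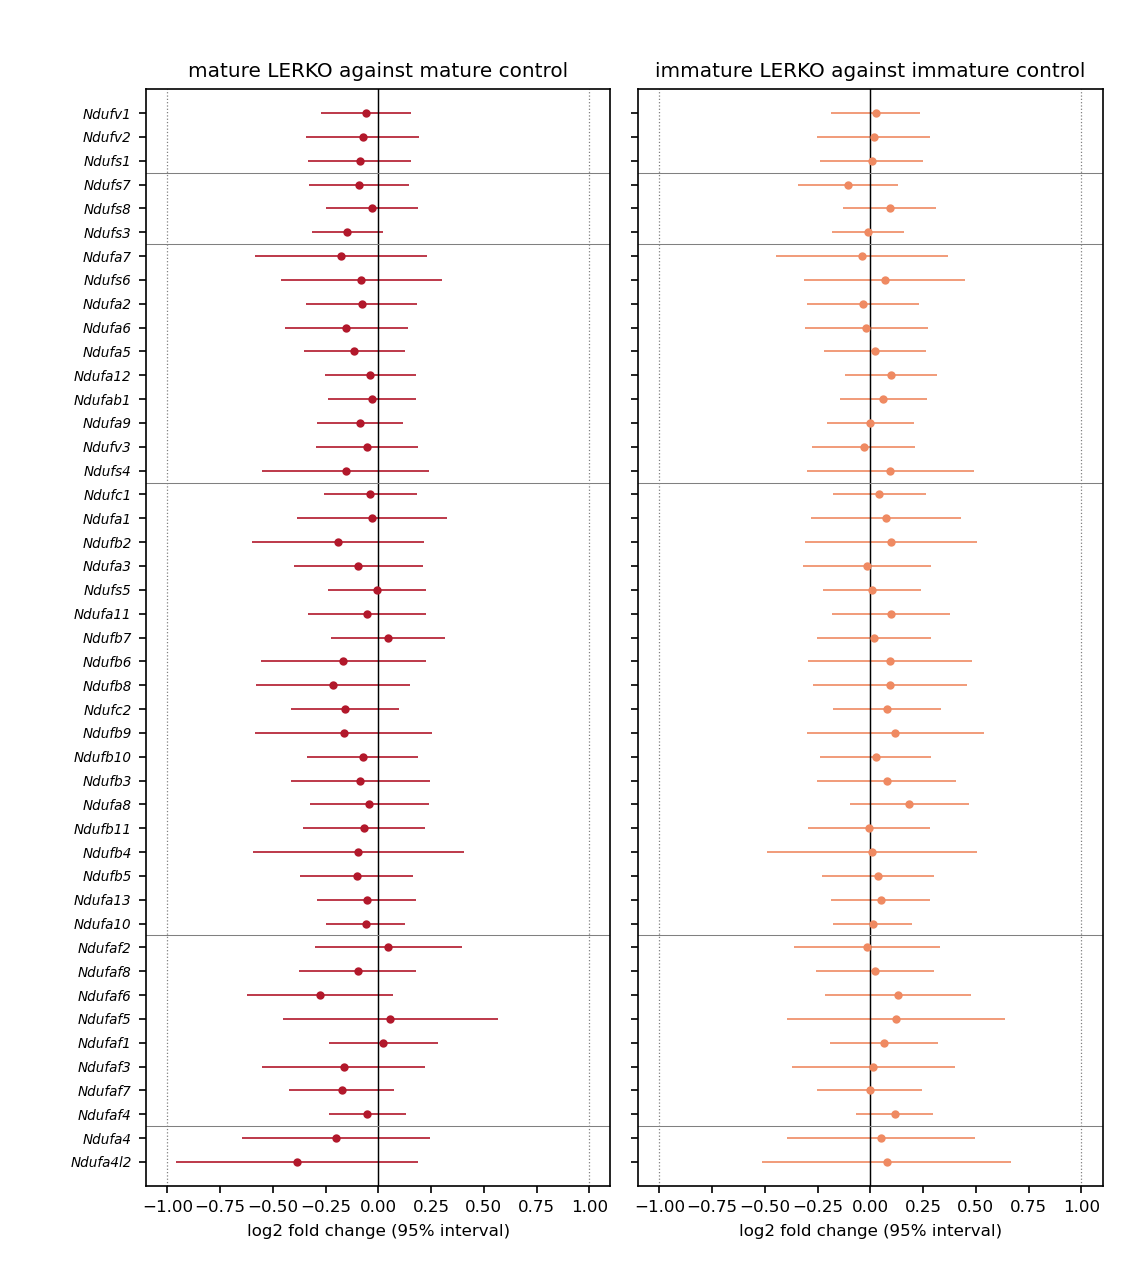
Log2 fold change of LERKO against control for 45 Nduf genes with the 95% interval, in mature (left) and immature (right) livers; grey lines part the roles in the order core NADH end, core ubiquinone end, accessory matrix arm, accessory membrane arm, assembly factors and complex IV, and dotted lines mark 2-fold. Every interval includes 0. Of all 46 genes, 42 lie below 0 in mature livers and 35 above 0 in immature livers. In fits not drawn, 28 lay below 0 in mature livers without mature LERKO library 2. In immature livers 37 lay below 0 without immature LERKO library 3.

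The difference of the knockout effects (mature minus immature) was tested directly. edgeR called 0 of 46 genes, beside 0% of all tested genes, and 0 of 46 had an unadjusted p below 0.05 in edgeR, DESeq2 or limma-voom, beside 6.35% of all in edgeR. The median difference was -0.12 on the log2 scale, beside -0.0093 for all genes. With all libraries 43 of 46 differences were below 0, beside 51.3% of all, and without immature LERKO library 3 it was 23 of 46. The smallest p belonged to Ndufaf6, with a difference of -0.41 (SE 0.23, adjusted p = 0.780 in edgeR), followed by Ndufc2 (-0.24) and Ndufaf4 (-0.17). The median was -0.00053 without immature LERKO library 3, -0.061 without mature LERKO library 2, -0.070 without mature control library 2, and 0.050 without both LERKO libraries. By library size alone it was -0.25, beside -0.13 for all genes, with 46 of 46 below 0 and 3 at an unadjusted p below 0.05 in edgeR. The shares of all genes below 0 and at that p were not computed under this scaling, so these counts cannot be set against them. Averaged over both stages, LERKO against control gave 0 calls among the 46 in edgeR, beside 0.00747% of all genes. At an unadjusted p below 0.05 there were 0 in edgeR, DESeq2 and limma-voom, beside 3.69% of all in edgeR. Among the smallest p were those of core subunits of the ubiquinone end, Ndufs3 (-0.079, SE 0.056) and Ndufs7 (-0.099, SE 0.079), both with an adjusted p of 0.999 in edgeR. Of the 46 averaged fold changes 33 were below 1, beside 49.1% of all, and 23 without mature LERKO library 2. The median of -0.035, beside 0.0023 for all genes, turned to 0.031 without the 3 libraries with most muscle transcripts. It was 0.000046 without mature LERKO library 2 and -0.090 without immature LERKO library 3. It lay between -0.015 and -0.0037 without mature LERKO library 4, mature control library 2, immature LERKO library 1, 2 or 4, or immature control library 3 or 4.

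Between the stages, no gene passed the test in either genotype. All mature livers carry lower sample numbers in their titles than all immature livers. The labels do not say whether these sets were collected or processed apart, and such a difference could not be told from stage. In control livers, mature against immature, edgeR called 0 of 46, beside 0% of all tested genes. At an unadjusted p below 0.05 there were 0 in edgeR, 1 in DESeq2 and 0 in limma-voom, beside 9.84% of all in edgeR and 10.4% in DESeq2. The median was -0.065, beside 0.015 for all genes, and 34 of 46 were below 0, beside 46.9% of all; by library size alone the median was 0.020, beside 0.097 for all genes. It was -0.12 without mature control library 2, -0.10 without immature control library 1 or library 2, -0.037 without immature control library 4, and -0.14 without the 3 libraries with most muscle transcripts. Ndufs7 had the smallest p, at 45.0, 56.6, 54.5 and 53.8 CPM in mature control and 55.3, 55.2, 56.7 and 70.0 CPM in immature control livers. Its log2 fold change was -0.18 (SE 0.11, adjusted p = 0.668 in edgeR), and its groups overlapped. Ndufc1, a small membrane-arm subunit, followed at -0.16 (SE 0.10), and Ndufa4l2 at 0.39 (SE 0.27). Ndufa4l2 was the only gene of the family without overlap here, higher in mature control livers, beside 6.11% of all genes higher without overlap. It had 1.37, 1.16, 1.21 and 1.22 CPM in mature control and 0.622, 1.08, 1.05 and 1.02 CPM in immature control livers. Summed markers of stellate, endothelial and Kupffer cells had a higher mean in mature control livers, and those of cholangiocytes and hepatocytes a lower mean. Stellate cell markers summed to 625.0 ± 73.1 CPM in mature control and 429.2 ± 50.9 CPM in immature control livers (SD, n = 4 each), without overlap. Endothelial markers summed to 322.3 ± 47.2 CPM in mature control and 196.0 ± 38.6 CPM in immature control livers, also without overlap. The 10 Kupffer cell and macrophage markers summed to 374.4 ± 49.7 CPM in mature control and 257.2 ± 82.6 CPM in immature control livers, with overlap. Cholangiocyte markers summed to 35.6 ± 4.63 CPM in mature control and 36.7 ± 1.74 CPM in immature control livers, with overlap. Hepatocyte markers summed to 122900 ± 12980 CPM in mature control and 133500 ± 9116 CPM in immature control livers, with overlap. The part of these cell types in the stage comparison was not tested.

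In LERKO livers, mature against immature, the family lay lower in the mature group, and again no gene passed. edgeR called 0 of 46, beside 0% of all tested genes. At an unadjusted p below 0.05 there were 4, all lower, beside 1.84% of all genes lower at that p, with 8 in DESeq2, beside 2.2%, and 3 in limma-voom, beside 1.67%, again all lower. In edgeR this count was 0 without mature LERKO library 2 and 2 without immature LERKO library 3. It was 7 without mature LERKO library 3 and 12 without immature LERKO library 1 or library 4. A fit of the LERKO groups alone gave 0. The share of all genes at that p was not computed in these refits, so their counts cannot be set against it. The median was -0.17, beside 0.0015 for all genes, and 45 of 46 were below 0, beside 49.6% of all. Ndufs3 was the only gene without overlap, beside 0.635% of all genes lower without overlap, at 73.1, 65.7, 70.4 and 70.4 CPM in mature LERKO and 79.2, 79.5, 85.3 and 78.8 CPM in immature LERKO livers. It differed by -0.21 on the log2 scale (SE 0.080, adjusted p = 0.955 in edgeR). Ndufa4 (-0.48, SE 0.21), Ndufc1 (-0.24, SE 0.10) and Ndufab1, the mitochondrial acyl carrier protein (-0.22, SE 0.097), were the others with p below 0.05.

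Averaged over both genotypes, the stage comparison called 0 of 46 in edgeR, beside 0% of all genes, and 6 had an unadjusted p below 0.05, all lower in mature livers, beside 2.49% of all genes lower at that p. DESeq2 had 10, beside 3.98%, and limma-voom 5, beside 2.21%, again all lower. In edgeR the count was 3 without mature LERKO library 2, mature control library 4 or immature control library 4, 10 without immature LERKO library 1, and 11 without immature LERKO library 4. By library size alone it was 2. The share of all genes at that p was not computed in these refits either. The log2 fold change was below 0 for 43 of the 46, beside 44.7% of all genes. These 6 were Ndufc1, Ndufab1, Ndufs3, Ndufa4, Ndufa3 and Ndufs7, with log2 fold changes between -0.36 and -0.14 and adjusted p from 0.527 to 0.620 in edgeR. Without immature LERKO library 3 the median was -0.065 in LERKO livers and -0.062 over both genotypes. Leaving out mature LERKO library 2 as well left a median of -0.0037 in LERKO livers and -0.024 over both genotypes, against -0.17 and -0.13 with all libraries.

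The summed level of the family varied between mice of the same group. Summed over the 46 genes, mature LERKO livers had 3407, 2784, 3443 and 3191 CPM, against 3466, 3688, 3400 and 3188 CPM in mature control livers. Immature LERKO livers had 3309, 3453, 4723 and 3398 CPM, against 3370, 3450, 3819 and 3896 CPM in immature control livers. Mature LERKO library 2 was the lowest and immature LERKO library 3 the highest of the 16, and the other 14 lay between 3188 and 3896 CPM. The groups overlapped, at 3206 ± 303 in mature LERKO against 3436 ± 206 in mature control and 3721 ± 671 in immature LERKO against 3634 ± 262 in immature control livers (SD, n = 4 each).

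**Figure D3:**
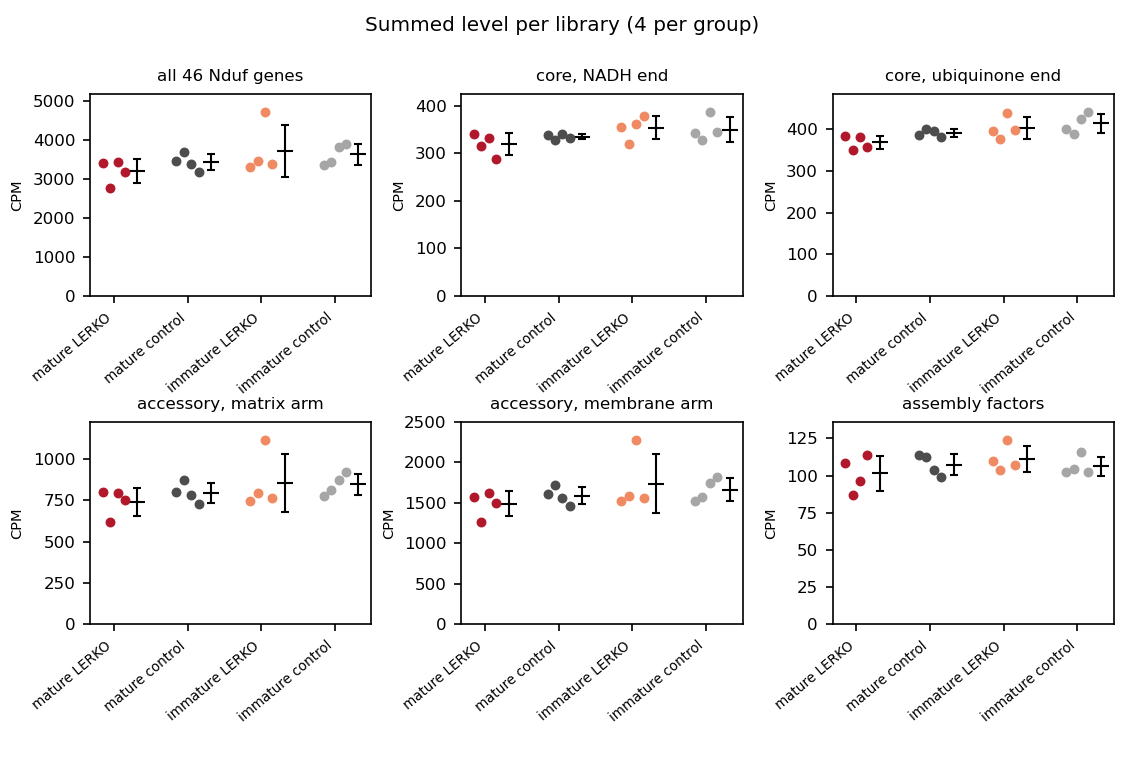
Summed level in CPM of all 46 Nduf genes and of 5 role classes, 1 point per library, with group mean and SD beside the points (n = 4). Immature LERKO library 3 (4723 CPM) and mature LERKO library 2 (2784 CPM) stand apart in the sum of all genes and of the accessory subunits, and lie among the other libraries in the sum of the NADH-end core subunits.

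These 2 livers stood apart across most of the family, in opposite directions. Mature LERKO library 2 had the lowest value of the 16 for 35 of the 46 genes, and only 2, Ndufs1 and Ndufa4l2, lay above their own mean in it. Immature LERKO library 3 had the highest value for 32 of the 46, and 41 lay above their mean. As log2 CPM minus the gene's mean over the 16 libraries, the median of the 46 was -0.28 in mature LERKO library 2 and 0.40 in immature LERKO library 3. In the other 14 libraries it was between -0.12 and 0.14. Hepatocyte marker sums in these 2 libraries were 126700 and 123100 CPM, inside the range of the others.

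The size of the swing differed by gene. Ndufa4, with the largest coefficient of variation of the family over the 16 libraries (25.9%), had 145.9 CPM in mature LERKO library 2 and 406.5 CPM in immature LERKO library 3, and between 181.7 and 275.1 CPM in the others. Ndufb9 had 166.0 CPM in mature LERKO library 2 and 419.6 in immature LERKO library 3. Ndufs4 had 39.98 CPM in mature LERKO library 2 and 104.0 in immature LERKO library 3. Ndufs1 went the other way, at 107.0 CPM in mature LERKO library 2 and 88.1 in immature LERKO library 3. By role, the sum of the core subunits of the NADH end was 314.6 CPM in mature LERKO library 2 and 360.9 in immature LERKO library 3, while that of the membrane-arm accessory subunits was 1265 and 2276 CPM.

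**Figure D4:**
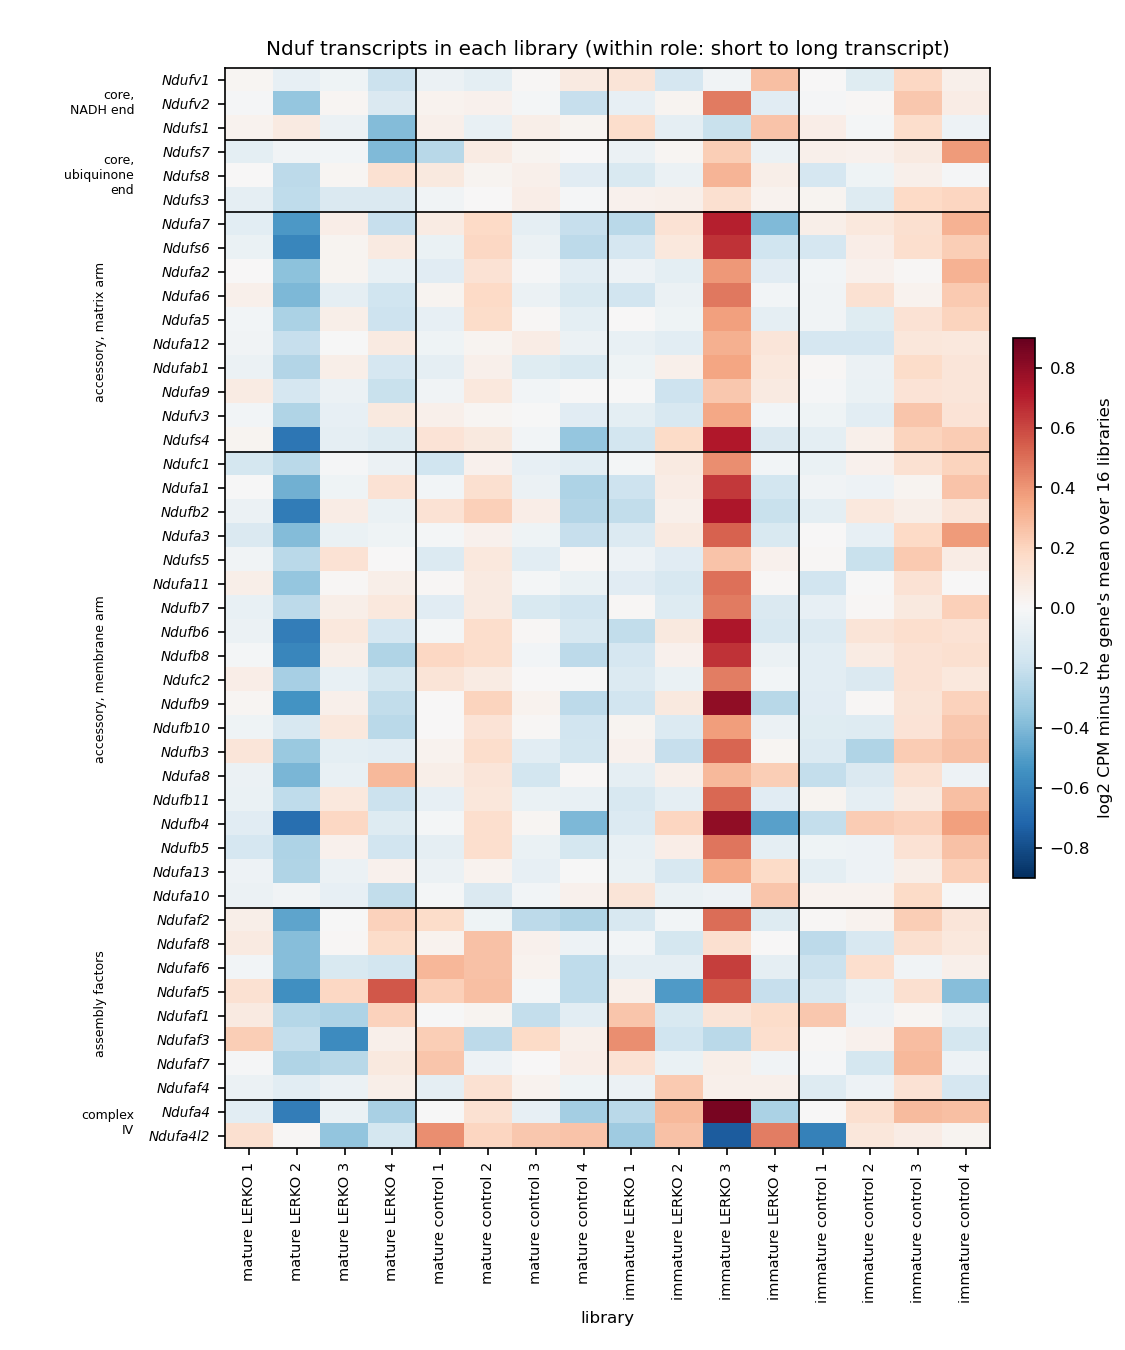
Deviation of 45 Nduf genes in each library, as log2 CPM minus the gene's mean over 16 libraries (colour), by role and, within a role, from short to long transcript. Mature LERKO library 2 is lowest of the 16 for 35 of all 46 genes and immature LERKO library 3 highest for 32; Ndufa4, Ndufb9 and Ndufb4 are the highest in immature LERKO library 3, and Ndufb4 and Ndufs4 the lowest in mature LERKO library 2.

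These values were set against transcript length. The 46 genes have short transcripts, from 315 to 3632 nt with a median of 868 nt, and 27 of them are under 1000 nt. Those under 1000 nt had a median deviation of -0.38 in mature LERKO library 2, and the other 19 had -0.26. In immature LERKO library 3 the medians were 0.50 under 1000 nt and 0.24 from 1000 nt. Spearman's rho of deviation on transcript length over the 46 genes was 0.471 in mature LERKO library 2 and -0.573 in immature LERKO library 3. In the other 14 libraries it ran from -0.506 (immature control library 4) to 0.545 (immature LERKO library 1), so a slope of this size was not particular to the 2 libraries. These are descriptions across genes of 1 library each, which share its depth.

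All tested genes had a slope of the same sign as the family in mature LERKO library 2 and immature LERKO library 3. The 2 signs differed in mature LERKO library 3, immature LERKO library 2 and immature control libraries 1, 2 and 3. Over the 12570 with a transcript length, rho was 0.348 in mature LERKO library 2 and -0.358 in immature LERKO library 3, and between -0.177 and 0.146 in the other 14. The 969 genes under 1000 nt had a median deviation of -0.26 in mature LERKO library 2 and 0.31 in immature LERKO library 3, and those over 4000 nt had 0.10 and -0.14. The trend on length over all genes was also removed from each library, an alternative added after the data were seen. The median of the 46 genes was then -0.10 in mature LERKO library 2 and 0.14 in immature LERKO library 3. Immature LERKO library 3 still had the highest median of the 16 libraries, and the highest value for 23 of the 46 genes. Mature LERKO library 4, which has the high acute phase level, was then the lowest, at -0.21. edgeR still called 0 of 46 in every comparison. Without this step it had called at most 0.00747% of all tested genes in any comparison. With lengths so removed, the median was -0.046 for mature LERKO against control, against -0.084 without this step. It was -0.072 for the difference of the knockout effects and -0.080 for the stages averaged over both genotypes, against -0.12 and -0.13. The sources used here hold no RNA integrity value per library, and its part in this pattern was not tested.

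**Figure D5:**
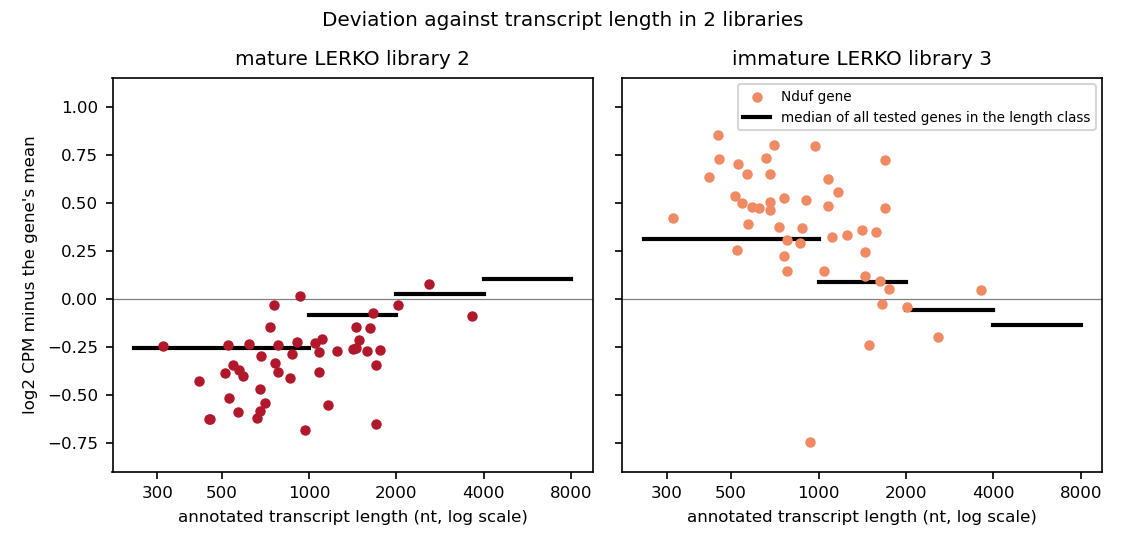
Deviation of each Nduf gene (points, log2 CPM minus the gene's mean over 16 libraries) against annotated transcript length (nt, log axis) in mature LERKO library 2 (left) and immature LERKO library 3 (right); black lines are medians of all tested genes in 4 length classes. Short genes lie low on the left (all genes under 1000 nt at -0.26) and high on the right (0.31).

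Genes that work around complex I were compared by the same fit. Of 13 assembly factors without an Nduf symbol, 12 were tested, as were 13 of 13 genes of ubiquinone synthesis, 13 of 14 of iron-sulphur cluster assembly and 9 of 9 transcriptional regulators of nuclear respiratory genes. edgeR called 0 of them in every comparison, beside at most 0.00747% of all tested genes. In mature livers, medians of LERKO against control were -0.014 for the assembly factors, -0.036 for ubiquinone synthesis, -0.13 for iron-sulphur cluster assembly and -0.028 for the regulators, beside -0.0097 for all genes. At an unadjusted p below 0.05 there were 0, 1, 1 and 0 of them in that order, both lower, beside 7.3% of all genes in either direction. In immature livers the medians were 0.056, -0.0081, -0.045 and -0.095, beside 0.013 for all genes, and none had an unadjusted p below 0.05.

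In mature livers the 2 smallest p of each list were as follows. Among the assembly factors, Dmac2 had 38.8 ± 6.17 CPM in mature LERKO and 46.1 ± 2.87 in mature control livers (log2 fold change -0.25, SE 0.12), and Timmdc1 had a log2 fold change of -0.14 (SE 0.098). Coq10b, a ubiquinone-binding protein, had 36.3 ± 7.32 CPM in mature LERKO and 52.6 ± 11.7 in mature control livers. The log2 fold change of Coq10b was -0.53 (SE 0.17, adjusted p = 0.481 in edgeR), and that of Coq8b was -0.21 (SE 0.13). Fdxr, the reductase that feeds electrons to ferredoxin, had -0.32 on the same scale (SE 0.14, adjusted p = 0.673 in edgeR) and Lyrm4, a partner of the cysteine desulphurase Nfs1, had -0.19 (SE 0.12). Among the regulators, Nrf1 had 0.31 (SE 0.16) and Gabpa -0.18 (SE 0.095).

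In immature livers the smallest p were those of Foxred1 (log2 fold change 0.17, SE 0.10) and Tmem126b (-0.13, SE 0.099) among the assembly factors, and of Coq7 (0.27, SE 0.15) and Coq6 (-0.12, SE 0.11) in ubiquinone synthesis. In iron-sulphur cluster assembly they were those of Lyrm4 (-0.25, SE 0.12) and Nfs1 (-0.16, SE 0.087), and among the regulators those of Yy1 (-0.14, SE 0.086) and Gabpa (-0.15, SE 0.095). Gabpa, a subunit of the ETS factor that binds CCGGAAG, had 36.5 ± 2.83 CPM in mature LERKO and 41.3 ± 3.05 in mature control livers, and 36.3 ± 3.696 CPM in immature LERKO and 40.3 ± 3.52 in immature control livers. Averaged over both stages its log2 fold change was -0.16 (SE 0.067, adjusted p = 0.999 in edgeR).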

How the data were processed

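The deposited table holds counts per gene for 16 livers; 5 columns hold 10 values that are not whole, so these deposited columns were treated as estimated counts and rounded. STAR, limma and R 4.05 with the build mm10 are named, per the submitters' processing notes, without a role. The sources used here do not give the counting program, the annotation or the strand setting. Genes were filtered with filterByExpr (minimum count 10, minimum total count 15), normalised by TMM (factors from 0.852 to 1.07) and tested with edgeR 4.0.16 in R 4.3.3 by the quasi-likelihood test, in 1 model with a coefficient for each of 4 groups and Benjamini-Hochberg adjustment over 13379 genes. Counts scaled to CPM were computed from the deposited counts; deviations use log2 CPM with a prior count of 2. The SE of a log2 fold change comes from its F statistic. The common biological coefficient of variation was 21.2%. P-values set a difference between groups against the spread between individual mice, which was estimated over all 4 groups and moderated across genes. The smallest and largest total counts, 18123974 and 23213905, set the precision, together with the spread between mice.

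Alternatives used DESeq2 1.42.0, limma-voom (limma 3.58.1), RLE factors, library size alone, no filter, 1 CPM in 4 libraries, a fit of only the groups compared, and leaving out each library in turn; 3 more were chosen with the data in view. The test was tried on simulated counts. No libraries were identical (0 pairs). Transcript lengths and overlaps are from GENCODE vM21 on GRCm38, also called mm10, to which 35465 of 35502 identifiers matched; the length is that of the shortest principal transcript. The members and lists were chosen with earlier results of these data known. Named genes are the core subunits, the assembly factors, Ndufa4 and Ndufa4l2, the highest and lowest member per length in each role, the 3 smallest p of each comparison, the most and least variable member, and the 2 smallest p of each further list; Ndufs6, Ndufb2 and Ndufb8 were named after their values were seen, as were members with an unadjusted p below 0.05 and those with a library far from the rest of its group. Values of 1 of the 46 genes are not reported here.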

Additional observations from a re-analysis of the deposited data

Results flagged for a closer look

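In each group of 4 libraries, the gap between the lowest or highest library and its nearest neighbour was set against the group's whole range. Of 188 such groups, 13 had a gap above Dixon's critical share of the range, which chance exceeds in a share of about 0.05 of groups.

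Immature LERKO library 3 was the highest of its group in 8 of the 13. The summed level of the 46 genes was 4723 CPM there, against 3453 CPM in the next library. Ndufb11 had 162.3 CPM, next to 107.0, and Ndufs3 had 85.28 CPM, next to 79.55. Ndufa2, a matrix-arm subunit, had 88.51 CPM, and Ndufa5, also of the matrix arm, had 65.31 CPM. Ndufc2 of the membrane arm had 67.32 CPM. Of the assembly factors, Ndufaf2 had 17.35 CPM and Ndufaf6 had 23.7 CPM, next to 14.53.

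Mature LERKO library 2 was the lowest of its group for Ndufa11, with 38.08 CPM next to 48.88. Mature control library 2 was the highest for Ndufb11, with 121.9 CPM next to 108.9. Among immature control livers, library 1 was the lowest for Ndufb6 (44.64 CPM, next to 52.63) and for Ndufa4l2 (0.6221 CPM, next to 1.021), and library 4 was the highest for Ndufs7 (70.02 CPM, next to 56.65).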

How the results depend on the processing

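No alternative called any of the 46 genes in any of the 7 comparisons. The smallest adjusted p over all of them was 0.250, in DESeq2 for the stages averaged over both genotypes. Few genes of any kind were called: per comparison, DESeq2 called between 3 and 61 of all tested genes and limma-voom at most 1. With so few calls among all genes, 0 of 46 says little about this family. Of the values under an alternative, 356 moved by less than the spread between replicates (a pooled SD of 0.144 log2 for the median) or, for counts, stayed at 0. That spread is larger than the medians of most comparisons, so a median could vanish or change sign and still be among the 356. One such case was immature LERKO against control, from 0.030 to -0.092 without immature LERKO library 3. The other 2 values came from leaving out mature LERKO library 2 and immature LERKO library 3 together. The median for mature against immature LERKO was then -0.0037, against -0.17 with them, and the median difference of the knockout effects was 0.050, against -0.12 with them. With 1 library left out at a time, the median ran from -0.115 to -0.030 for mature LERKO against control and from -0.092 to 0.076 for immature LERKO against control. It ran from -0.117 to -0.037 for the stages in controls and from -0.215 to -0.065 in LERKO livers, from -0.164 to -0.00053 for the difference, from -0.090 to 0.000046 for the averaged knockout effect and from -0.157 to -0.062 for the averaged stage effect. With library size alone the medians were -0.149 for mature LERKO against control, 0.089 for immature LERKO against control, 0.020 for the stages in controls and -0.251 for the difference. With a filter of 1 CPM in 4 libraries they were 0.046 for immature LERKO against control and -0.020 for the averaged knockout effect, against 0.030 and -0.035. The number of genes at an unadjusted p below 0.05 ran from 0 to 12 for the stages in LERKO livers and from 3 to 11 for the averaged stage effect with 1 library left out, against 4 and 6 with all; in the other 5 comparisons it was at most 2. The share of all genes at that p was not computed with a library left out. The fit on the compared groups alone has no separate value for the 3 comparisons that use all 4 groups. No paired analysis was possible, because each liver is from a different mouse and the labels give no pairing between groups. Library numbers within a group were given here in the order of the deposited samples and are not in the labels. The spread between mice limits single genes to changes beyond about their 95% intervals, and Ndufa4l2 is limited by counts of 10 to 29.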
